A study of Mus musculus with 13 samples.

Results

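Platelet-derived growth factor (PDGF) signalling was described here through 4 genes, the ligands Pdgfa and Pdgfb and the receptors Pdgfra and Pdgfrb, which were taken by symbol from the 27998 genes listed in every matrix. The ligands are secreted as dimers and bind receptor tyrosine kinases at the cell surface. The A chain acts mainly through the alpha receptor, whereas the B chain binds both receptors. In the developing vessel wall, endothelial Pdgfb is known to recruit mural cells (pericytes and smooth muscle cells) that carry Pdgfrb, and Pdgfra is widely used as a marker of cardiac fibroblasts and mesenchyme. All 4 genes were found under the same identifiers in the GRCm38 annotation. Pdgfa lies at chr5:138976014-138997370 on the minus strand, Pdgfb at chr15:79995874-80014977 on the minus strand, Pdgfra at chr5:75152292-75198215 on the plus strand and Pdgfrb at chr18:61045150-61085061 on the plus strand.

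The series holds droplet-based single-cell RNA sequencing of untreated wild-type C57Bl/6J mice at 6 stages. At E8.5 and E10.5 the suspension came from embryos without head and limbs, and from E12.5 to P3, the third day after birth, it came from hearts. A total of 10 matrices were read, with 2 replicate libraries at each of E10.5, E12.5, E14.5 and E16.5, only replicate 2 at E8.5 (replicate 1 was not analysed here), and 1 matrix at P3 that combines 2 sample records, told apart only by the suffix of the barcodes. The labels give no number of animals behind a library, so p-values measure the spread between these libraries. E8.5 and P3, with 1 matrix each, are described without a test. The P3 barcodes of suffix 1 and suffix 2 differed beyond their counting intervals for Pdgfa in cardiomyocytes (58.9 and 77.5 UMIs per 1000000), Pdgfb in endothelial cells (69.6 and 93.7) and Pdgfra in Col1a1 barcodes (140.7 and 97.2).

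The libraries held 67141166 to 259041468 unique molecular identifiers (UMIs, each standing for 1 captured transcript), and 80741 barcodes with at least 2000 UMIs were kept, with a median of 10268 to 24516 UMIs per library. Barcodes were assigned to 6 gates by marker genes: Tnnt2 (cardiomyocytes), Cdh5 (endothelial cells), Col1a1 together with Tcf21 or Sox9 (fibroblasts and valve mesenchyme), Rgs5 (mural cells), Upk3b (epicardium) and Epcam (epithelium of the embryo stages). A barcode that passed more than 1 gate was left out of all of them. Levels are given as CPM, the UMIs of the gene per 1000000 UMIs of the gate, summed over its barcodes in a library. The marker lists used to look at the gates count the gate genes too (Tnnt2, Cdh5, Rgs5, Upk3b, and both Col1a1 and Tcf21). The gating itself favours these genes, so only the other markers bear on what a gate holds. All 6 cardiomyocyte and all 6 endothelial markers were highest in their own gate at every stage. The Rgs5 gate was highest for 6 of 8 mural markers at E12.5, where the pericyte gene Higd1b was at 0, and for 8 of 8 at E16.5 and P3. The Col1a1 gate was highest for 3 of 6 fibroblast markers at E12.5 and for 4 to 6 afterwards, so it is called by its rule below. The Upk3b gate was highest for 4 of 7 epicardium markers at E8.5, with 2 at 0, for 5 at E10.5 and for all 7 from E12.5 to E16.5, so its embryo barcodes are not called epicardial. Globin-rich erythroid barcodes, which should lack all 4 genes, held at most 1.43 CPM of Pdgfa, 1.62 of Pdgfb, 1.25 of Pdgfra and 1.38 of Pdgfrb in the hearts. These levels serve as the background. In summed libraries of this kind, fewer expressing cells and less RNA per cell cannot be told apart.

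In the hearts most UMIs of each ligand gene lay in 1 gate, while both receptor genes lay mostly outside the gates at E12.5. The Tnnt2 gate held 73.2% to 91.4% of all Pdgfa UMIs per heart library, with 44.4% to 66.4% of all barcodes. The Cdh5 gate held 74.2% to 88.9% of the Pdgfb UMIs with 6.56% to 15.9% of the UMIs of all genes. Pdgfra was spread over the Col1a1 gate and ungated barcodes at first and was mainly in the Col1a1 gate later: the Col1a1 gate held 15.4% and 23.6% of its UMIs at E12.5, 69.4% and 69.2% at E16.5 and finally 80.5% at P3. Barcodes that passed no gate held 67.8% and 57.9% of the Pdgfra UMIs and 56.8% and 56.6% of the Pdgfrb UMIs at E12.5. Their share of Pdgfrb was 46.6% and 57.5% at E14.5, and 22.5% and 18.1% in the E16.5 libraries, with 2.30% left at P3. Barcodes of more than 1 gate count in the totals behind these shares but in none of the gates. They held 40 and 51 Pdgfrb UMIs at E12.5 and 785 at P3, where the Rgs5 gate held 1891. The Rgs5 gate held 5.3% and 4.7% of the Pdgfrb UMIs at E12.5, 31.7% and 35.1% at E16.5 and finally 50.6% at P3. In the embryo stages 43.6% to 50.7% of Pdgfa and 90.4% to 95.1% of either receptor gene lay in barcodes of no gate. Those were 83.3% to 90.0% of all embryo barcodes, so the receptor shares were not far above that of all barcodes and the Pdgfa share was below it. These shares follow the number of barcodes in a gate as well as the level within it.

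**Figure D1:**
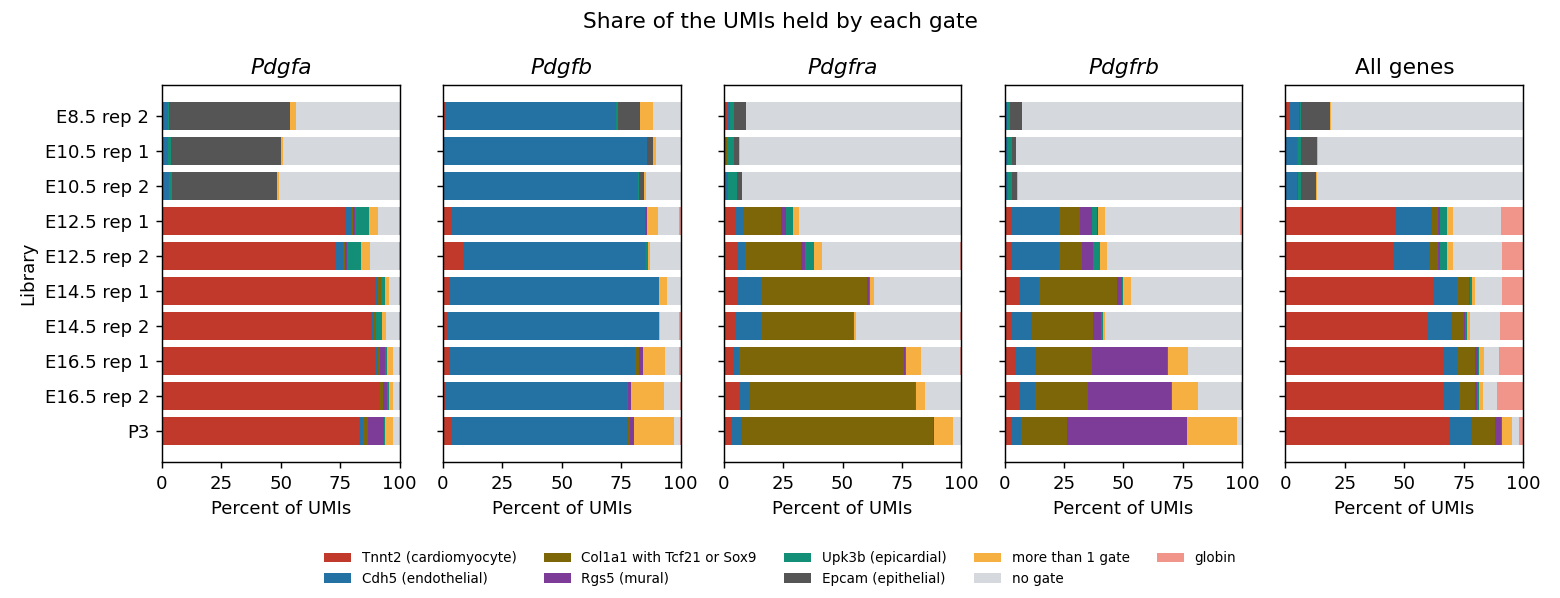
Stacked bars give, for each of the 10 libraries (rows), the percent of the UMIs of each of the 4 genes, and of all genes, that fell in each gate. Pdgfa is mostly in the Tnnt2 gate and Pdgfb in the Cdh5 gate of the hearts, while the part of Pdgfrb in the Rgs5 gate goes from 4.7% to 5.3% at E12.5 to 50.6% at P3.

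The ligand Pdgfa was highest in epithelium of the embryos and in cardiomyocytes, mural cells and epicardium of the hearts, and low in endothelial and Col1a1 barcodes. In the Epcam gate its level was 178.8 CPM (95% exact Poisson interval 173 to 185, which covers counting error only) at E8.5, and 264.8 and 259.1 in the 2 libraries of E10.5. In the Cdh5 gate of the same libraries it was 18.6, then 15.3 and 20.4. The gates did not overlap at either stage. At E10.5 Pdgfa was 13.2-fold higher in the Epcam than in the Cdh5 gate (log2 difference 3.72 ± 0.12, SE; adjusted p = 1.4e-26, quasi-likelihood test of edgeR, adjusted by Benjamini-Hochberg over every gene in the fit, as throughout). Of the 13229 genes tested, 57.9% were called in this comparison. The SE here and below is the absolute log2 difference divided by the square root of the F statistic of the test. It can fall below the counting error where a gate held few UMIs.

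In cardiomyocytes Pdgfa stood at 21.4 CPM at E8.5, then 81.7 and 65.9 at E10.5, then 76.3 and 74.5 at E12.5, then 103.6 and 106.1 at E14.5, then 86.5 and 93.7 at E16.5 and finally 64.1 at P3. Both E14.5 libraries were above all other cardiomyocyte libraries. Endothelial levels in the hearts lay between 4.9 and 9.3 CPM. Over E12.5, E14.5 and E16.5 Pdgfa was lower in endothelial cells than in cardiomyocytes (log2 difference -3.64 ± 0.09, adjusted p = 4.4e-33), in a comparison that called 80.7% of all genes. Within cardiomyocytes it rose 1.37-fold from E12.5 to E14.5 (0.45 ± 0.10, adjusted p = 3.5e-04; 32.0% of genes called) and did not pass the test from E14.5 to E16.5 (-0.03 ± 0.10, adjusted p = 0.85). The fitted fold changes use library factors that balance all genes of a gate, so they are not the plain ratios of these levels. Ventricular and atrial cardiomyocytes, told apart by Myl2 and Sln, held 84.8 and 92.2 CPM in the Myl2 subset and 110.4 and 94.6 in the Sln subset at E16.5. Both Sln values were above both Myl2 values, and the difference was not tested.

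Free RNA of the suspension carries Pdgfa. Barcodes of 1 to 100 UMIs, taken as a sample of it, held 29.0 to 54.4 CPM of Pdgfa in the libraries that list them. The endothelial level was 10.1% to 24.5% of that value in the hearts and the Col1a1 level 19.95% to 31.0%. For comparison the cardiomyocyte gene Myh7, which these cells should lack, stood at 3.8% to 10.1% of its own free level in endothelial barcodes and at 3.4% to 12.7% in Col1a1 barcodes. The part of free RNA in the low Pdgfa levels of both gates was not tested further. In the Col1a1 gate Pdgfa lay between 8.5 and 15.6 CPM.

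In the hearts the Upk3b and Rgs5 gates also held Pdgfa. In the Upk3b gate the level was 17.9 CPM at E8.5, then 32.6 and 31.2 at E10.5, then 89.7 and 92.8 at E12.5, then 130.3 and 164.7 at E14.5, then 88.1 and 95.6 at E16.5 and, from 13 barcodes, 98.6 at P3. Pdgfa rose 1.51-fold from E12.5 to E14.5 in this gate (0.60 ± 0.17, adjusted p = 0.013; 12.4% of genes called), a call that was lost without E14.5 replicate 2 and under doubled gate thresholds. Against cardiomyocytes, the difference over the 3 heart stages was 0.13 ± 0.09 with an adjusted p of 0.22 (59.9% of genes called). In the Rgs5 gate Pdgfa was at 45.8 and 58.4 at E12.5, then 110.7 and 121.1 at E16.5 and finally 136.7 at P3. It rose 2.42-fold from E12.5 to E16.5 (1.28 ± 0.21, adjusted p = 1.3e-05; 21.0% of genes called). It was higher than in endothelial cells 5.45-fold at E12.5 and 15.1-fold at E16.5, comparisons that called 28.2% and 29.8% of genes, and the difference between these stages passed its own test (1.47 ± 0.31, adjusted p = 5.1e-04; 13.6% of genes called). Without E16.5 replicate 1 the E16.5 difference was 4.56 in place of 3.92 on the log2 scale.

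**Figure D2:**
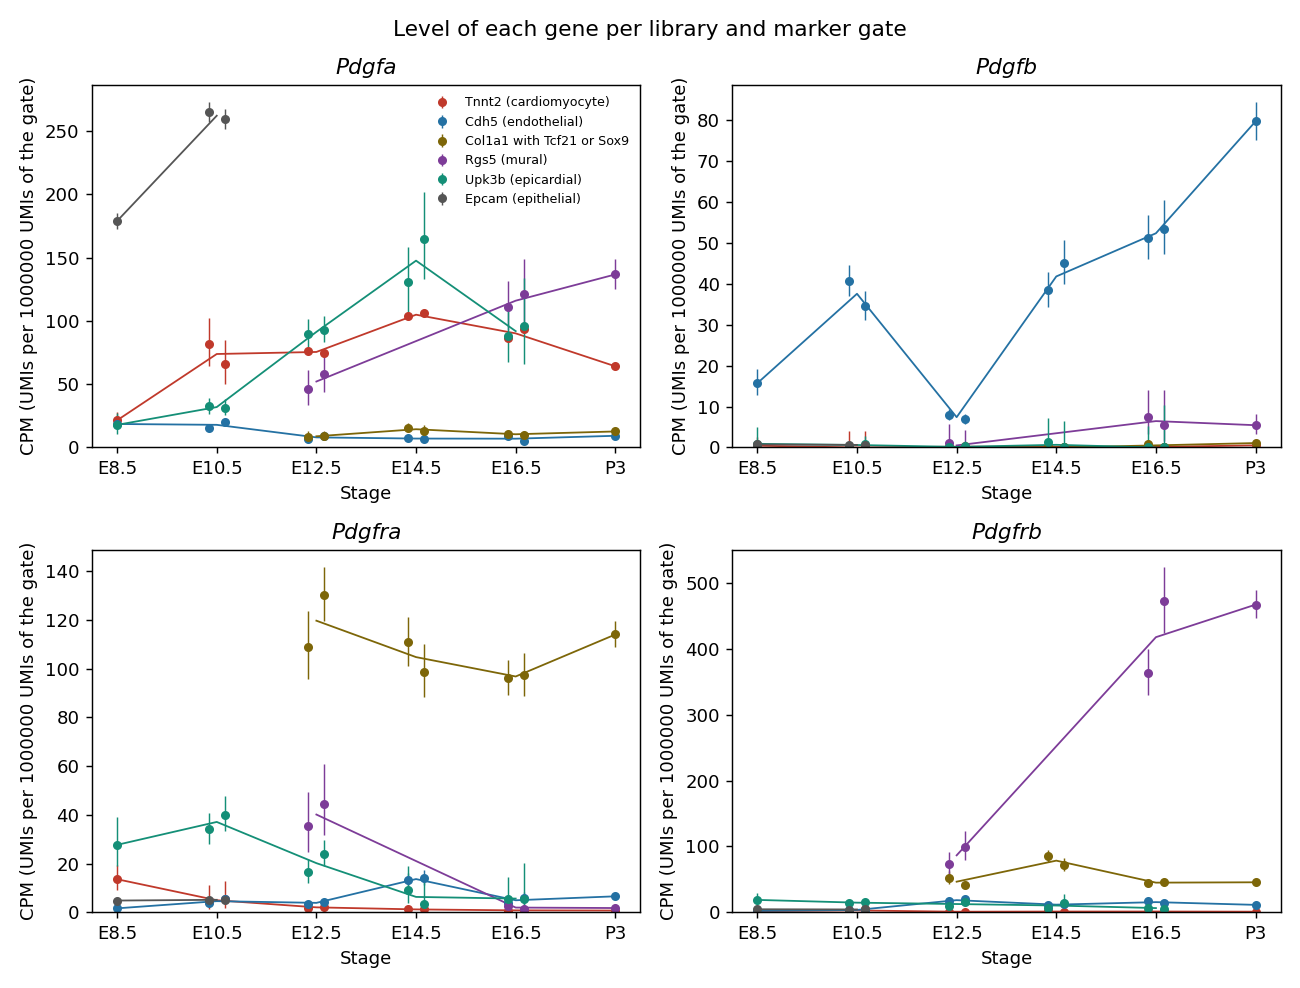
Each panel plots 1 gene, with the stage on the x axis and CPM on the y axis; points are libraries with at least 20 barcodes in the gate, bars are 95% exact Poisson intervals (counting error only) and lines join stage means, so the Rgs5 line passes over E14.5, where the gate held 13 and 9 barcodes. Pdgfb is at or below 7.4 in every other plotted gate than the endothelial one, and Pdgfrb in the Rgs5 gate goes from 73.3 and 99.6 at E12.5 to 467.3 at P3.

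The ligand Pdgfb, the chain that endothelial cells are known to secrete towards mural cells, was highest in the endothelial gate at every stage. Its endothelial level was 15.7 CPM at E8.5, then 40.6 and 34.4 at E10.5, then 7.9 and 6.8 at E12.5, then 38.4 and 45.1 at E14.5, then 51.1 and 53.4 at E16.5 and finally 79.6 (75.1 to 84.2) at P3. Both E12.5 libraries were below all others, and the embryo and heart stages differ in the tissue taken. Cardiomyocytes held 0 to 0.52 CPM, which is within the range of erythroid barcodes. Pdgfb was higher in endothelial cells than in cardiomyocytes 34.6-fold at E12.5, 202-fold at E14.5 and 315-fold at E16.5, where 71.7%, 69.8% and 70.6% of genes were called. These fitted folds have a denominator at the background level, so they show the direction and not an exact size. The increase of this difference from E12.5 to E16.5, with the cardiomyocyte side at background throughout, passed its own test (3.19 ± 0.52, adjusted p = 7.5e-06; 30.7% of genes called). In the Epcam gate at E10.5 Pdgfb was 64.7-fold lower than in the endothelial gate (-6.01 ± 0.20, adjusted p = 1.3e-24). The Epcam gate held only 11 and 9 Pdgfb UMIs there, so this fold too shows the direction and not an exact size.

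From E12.5 to E14.5 endothelial Pdgfb rose 5.4-fold (2.43 ± 0.13, adjusted p = 7.6e-17; 32.5% of genes called). The further step to E16.5 was small (0.35 ± 0.12, adjusted p = 0.039; 15.3% of genes called) and lost its call in 10 alternatives, among them leaving out E14.5 replicate 1, E16.5 replicate 1 or E16.5 replicate 2. Thinned to 2000 UMIs per barcode, 1.20% and 0.874% of endothelial barcodes had a Pdgfb UMI at E12.5, 9.14% and 8.01% at E16.5 and finally 13.1% at P3. Without thinning these shares were 9.88% and 7.98%, then 32.2% and 33.2%, then 52.9%, at median depths of 18340, 18813, 12892, 11047 and 22764 UMIs. In erythroid barcodes of the hearts at most 0.418% had a Pdgfb UMI after thinning and 1.26% before, at median depths of 8781 to 30569 UMIs.

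Within the endothelial gate, Pdgfb lay with Fabp4, a fatty acid binding protein of coronary endothelium, and was low in barcodes with Npr3, a marker of endocardium, that lacked Fabp4. Barcodes with neither held intermediate levels. In the Fabp4 subset (at least 2 Fabp4 UMIs and no Npr3) the level was 53.7 and 47.5 CPM at E12.5, from 19 and 17 barcodes, then 85.0 and 78.8 at E14.5, then 90.2 and 90.8 at E16.5 and finally 106.2 at P3. In the Npr3 subset (at least 1 Npr3 UMI and no Fabp4) it was 2.5 and 3.1, then 1.9 and 5.3, then 2.4 and 8.8, and finally 7.2 at P3. The Fabp4 and Npr3 subsets did not overlap at any heart stage. Barcodes with Npr3 and at least 1 Fabp4 UMI were below the Fabp4 subset at each stage, with 10.9 and 20.4 at E12.5, then 38.7 and 66.9 at E14.5, then 20.6 and 8.9 at E16.5 and finally 39.6 at P3. Barcodes with neither 2 Fabp4 UMIs nor an Npr3 UMI held 19.2 and 13.4 at E12.5, then 13.8 and 19.0 at E14.5, then 39.4 and 13.9 at E16.5 (10 and 3 UMIs) and finally 8.8 at P3 (1 UMI). Averaged over E14.5 and E16.5, Pdgfb was 23.4-fold higher in the Fabp4 than in the Npr3 subset (4.55 ± 0.20, adjusted p = 2.7e-14, over 10883 tested genes of which 54.4% were called).

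The size of the Fabp4 subset moved with the level of the whole gate. It made up 2.54% and 1.86% of endothelial barcodes at E12.5, then 26.0% and 32.9% at E14.5, then 43.1% and 43.6% at E16.5 and finally 54.5% at P3, and held 33.9% and 20.5%, 83.9% and 76.9%, 89.5% and 92.0%, and 84.2% of the Pdgfb UMIs of the gate. At E12.5 the Npr3 subset held 24.4% and 34.8% of them. Another 37.8% and 30.3% lay in barcodes with neither 2 Fabp4 UMIs nor an Npr3 UMI. Most Pdgfb UMIs of that stage thus lay outside the Fabp4 subset. The Npr3 subset went from 75.2% and 76.1% of the gate at E12.5 to 10.4% at P3, while barcodes with both Npr3 and Fabp4 went from 2.27% and 2.84% to 32.9%, where they held 15.2% of the Pdgfb UMIs. At E10.5, by contrast, no more than 1 endothelial barcode per library was in the Fabp4 subset, and the Npr3 subset held 44.5 and 38.5 CPM of Pdgfb. A Fabp4 UMI can also come from free RNA, and its part in the size of the subset was not tested.

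**Figure D3:**
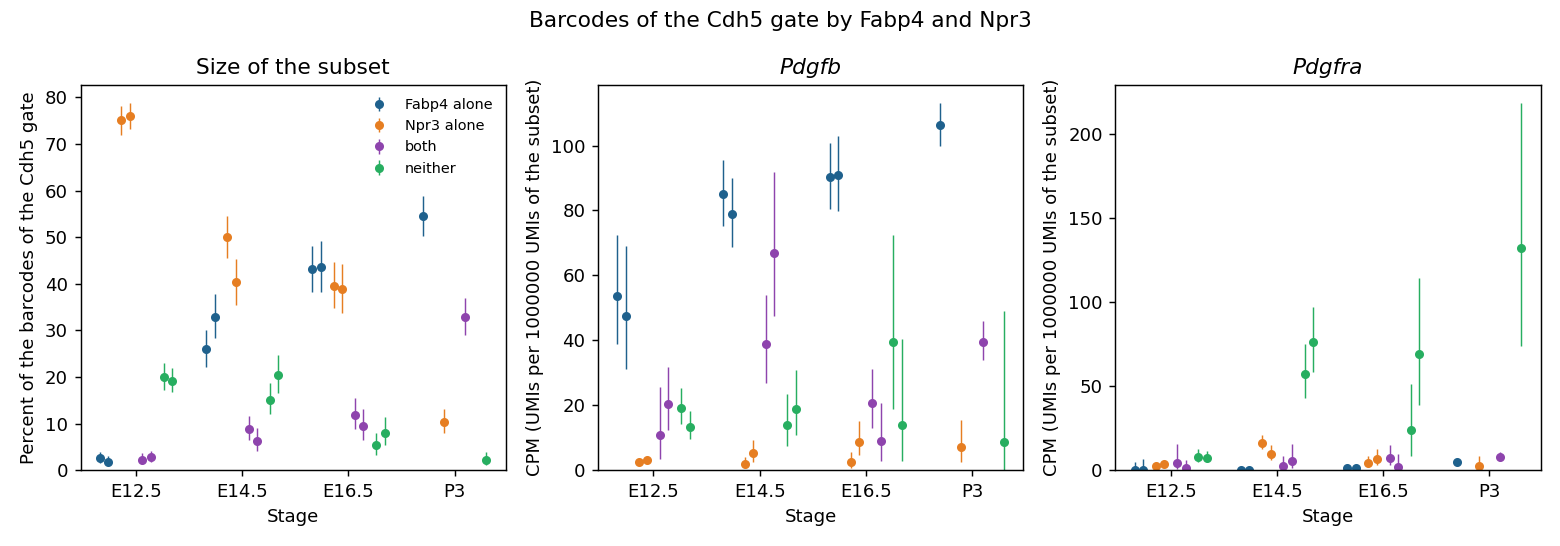
Endothelial barcodes of the heart stages (x axis) are split into those with Fabp4 alone, Npr3 alone, both or neither; points are libraries and bars are 95% exact intervals, binomial for the percent of barcodes (left) and Poisson for Pdgfb and Pdgfra in CPM (centre and right). Pdgfb is at 47.5 to 106.2 in the Fabp4 subset at or below 8.8 in the Npr3 subset and at 8.9 to 66.9 in barcodes with both, while Pdgfra is highest in the barcodes with neither gene at every heart stage.

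Pdgfb was low in the other gates. At P3 cardiomyocytes held 57 UMIs, barcodes outside the gates 43 and the Col1a1 gate 17, or 0.52, 8.3 and 1.1 CPM. The Col1a1 gate held 1 Pdgfb UMI at E12.5, none at E14.5 and 7 at E16.5, summed over both libraries. At E14.5 the endothelial level was at least 105-fold that of the Col1a1 gate, computed against 3 counts over both libraries, the limit that a count of 0 allows. The Rgs5 gate had 1 and 0 UMIs at E12.5, then 9 and 4 at E16.5 and finally 22 at P3, or 1.0, 0, 7.4, 5.4 and 5.4 CPM. At E16.5 Pdgfb was 8.15-fold lower there than in endothelial cells (-3.03 ± 0.30, adjusted p = 2.0e-10). At P3, 40 barcodes passed both the Cdh5 and the Rgs5 gate with a median of 39665 UMIs against 22764 in the Cdh5 gate and 8358 in the Rgs5 gate, and they held 203 Pdgfb and 213 Pdgfrb UMIs (123.8 and 129.9 CPM). Doublets were removed only in so far as barcodes of more than 1 gate were left out.

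The receptor Pdgfra, which binds the A chain, was highest in the Col1a1 gate of the hearts, with no change from E12.5 to E16.5 that passed the test. Its level in this gate was 109.0 and 130.5 CPM at E12.5, then 110.8 and 98.8 at E14.5, then 96.2 and 97.4 at E16.5 and finally 114.1 at P3. The E14.5 libraries overlapped those of E12.5 and the E16.5 libraries were below both stages, but from E12.5 to E16.5 the difference was -0.10 ± 0.11 (95% interval -0.33 to 0.13, adjusted p = 0.56; 28.8% of genes called). Against the endothelial gate Pdgfra was 26.4-fold higher at E12.5, 6.77-fold at E14.5 and 20.7-fold at E16.5, over 14112 tested genes of which 41.7%, 47.0% and 48.2% were called. The 3 kinds of Col1a1 barcodes were pooled for this fit after the data were seen, since Tcf21 without Sox9 marked only 5 and 16 of them at E12.5.

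The parts of the Col1a1 gate were then compared. Barcodes with Tcf21, a factor of epicardium-derived fibroblasts, and no Sox9 held 162.6 and 107.4 CPM of Pdgfra at E14.5, then 89.5 and 101.8 at E16.5 and finally 148.3 at P3. They are called Tcf21 fibroblasts in this text by that rule alone, without a marker check of their own. Barcodes with Sox9, a factor of valve mesenchyme, and no Tcf21 held 104.9 and 123.3 at E12.5, then 101.5 and 98.1 at E14.5, then 93.1 and 77.8 at E16.5 and finally 66.8 at P3. Barcodes with both factors, 276 and 214 in number at E16.5 and 838 at P3, held 118.2 and 149.5 at E12.5, then 110.1 and 94.9 at E14.5, then 98.8 and 104.0 at E16.5 and finally 108.3 at P3. Over E14.5 and E16.5 Pdgfra was 1.33-fold lower with Sox9 alone than with Tcf21 alone (-0.42 ± 0.13, adjusted p = 0.037; 10.6% of genes called). That call was lost without E14.5 replicate 1, without E16.5 replicate 2 and under doubled gate thresholds.

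Endothelial Pdgfra was low, with a peak at E14.5. It was at 3.5 and 4.2 CPM at E12.5, then 13.3 and 13.96 at E14.5, then 3.9 and 5.9 at E16.5 and finally 6.5 at P3. Both E14.5 libraries were above all others. It rose 3.35-fold from E12.5 to E14.5 (1.75 ± 0.20, adjusted p = 6.7e-09) and fell 2.82-fold to E16.5 (-1.49 ± 0.25, adjusted p = 2.4e-05).

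Few barcodes carried the peak. At E14.5, 31 and 24 endothelial barcodes had a Pdgfra UMI, with up to 14 and 20 UMIs in 1 barcode. Barcodes with neither 2 Fabp4 UMIs nor an Npr3 UMI held 57.3 and 76.0 CPM at E14.5 (54 and 64 of the 116 and 87 Pdgfra UMIs of the gate), against 0.3 and 0 in the Fabp4 subset. The Npr3 subset, at 16.4 and 9.6 from 59 and 20 UMIs, was also above its E12.5 levels of 2.8 and 3.9. Pdgfra stood at 8.0 and 7.4 at E12.5 in barcodes with neither 2 Fabp4 UMIs nor an Npr3 UMI. They held 23.6 and 69.3 at E16.5, from 6 and 15 UMIs. Their P3 level of 132.2 came from 15 UMIs in 4 of 12 barcodes. As a description, with genes picked after their values were seen, 11 and 13 such E14.5 barcodes had at least 2 Pdgfra UMIs. These barcodes held 328.3 and 461.0 CPM of Prox1, a factor of lymphatic and valve endothelium. Barcodes of the whole endothelial gate without Pdgfra held 16.49 and 10.6. The groups differ in the choice by Fabp4 and Npr3 as well as in Pdgfra, and these were not separated. Of the 18 genes looked at in these barcodes not all were higher. They held 269.1 and 309.0 of Cdh5 against 421.3 and 460.4, 145.3 and 122.6 of the endothelial receptor Kdr against 286.7 and 296.3, and 10.8 and 24.5 of the lymphatic receptor Flt4 (2 and 5 UMIs) against 39.9 and 51.3. Col1a1 was at 91.5 (17 UMIs) and 0 against 3.0 and 2.6, and their median depth was 15459 and 11506 UMIs against 14380 and 12101.

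In the Upk3b gate Pdgfra was lower at the later stages. It was at 27.7 CPM at E8.5, then 34.1 and 40.1 at E10.5, then 16.3 and 24.0 at E12.5, then 9.1 and 3.5 at E14.5 (7 and 2 UMIs), then 5.6 in each library at E16.5 (4 and 2 UMIs). At P3 it was at 0, from 13 barcodes, which allows up to 11.4, above the E16.5 level. From E12.5 to E16.5 it fell 3.67-fold (-1.88 ± 0.57, adjusted p = 0.015; 20.3% of genes called), and the call was lost under doubled or halved gate thresholds and without E12.5 replicate 2, E16.5 replicate 1 or E16.5 replicate 2. In the same gate 65.0% and 63.9% of barcodes had a Pdgfa UMI at E12.5 and 20.4% and 18.5% a Pdgfra UMI, before thinning, and 11.5% and 11.6% had both. In cardiomyocytes Pdgfra fell 2.42-fold from E12.5 to E16.5 (-1.28 ± 0.22, adjusted p = 4.6e-06; 56.2% of genes called), at levels of 0.6 to 2.3 CPM. Erythroid barcodes of these stages held 0.25 to 1.25, and free RNA held 6.9 and 15.05 at E12.5 and 4.6 and 5.5 at E16.5.

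The receptor Pdgfrb, through which the B chain acts on mural cells, was highest in the Rgs5 gate and rose there. Its level was 73.3 and 99.6 CPM at E12.5, then 363.6 and 472.1 at E16.5 and finally 467.3 (446 to 489) at P3, with 487.6 and 441.6 in the barcodes of suffix 1 and suffix 2. At E14.5, 13 and 9 barcodes gave 175.9 and 366.5 and entered no test, and at E10.5, 12 and 14 barcodes of the embryos gave 38.5 and 16.8. The E12.5 libraries were below all other heart libraries. Between E12.5 and E16.5 it rose 5.22-fold (2.38 ± 0.18, adjusted p = 4.3e-14). Thinned to 2000 UMIs, 6.45% and 14.52% of the barcodes had a Pdgfrb UMI at E12.5, 46.7% and 52.6% at E16.5 and finally 53.8% at P3, against at most 0.315% of erythroid barcodes. Unthinned shares were 58.1% and 59.7%, then 94.6% and 87.2%, then 90.1%, at median depths of 15900, 14150, 12303, 8944 and 8358 UMIs, and reached 2.52% in erythroid barcodes.

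Against endothelial cells, Pdgfrb in the Rgs5 gate was 3.96-fold higher at E12.5 and 25.1-fold higher at E16.5, and the difference between the stages passed its test (2.66 ± 0.25, adjusted p = 1.3e-10). Against Tcf21 fibroblasts it was 7.95-fold higher at E16.5 (2.99 ± 0.20, adjusted p = 3.6e-15; 13.0% of genes called). Marker genes of the Rgs5 gate moved over the same stages. Kcnj8 and Higd1b, genes of cardiac pericytes, went from 8.1 and 22.9, and 0 and 0, CPM at E12.5 to 624.7 and 547.0, and 690.0 and 655.8, at E16.5. Acta2, a smooth muscle actin, was at 1855.9 and 1322.5 and then at 1231.2 and 847.7.

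Pdgfra moved the other way in this gate. It was at 35.6 and 44.7 CPM at E12.5 (35 and 39 UMIs), then 2.5 and 1.4 at E16.5 (3 and 1 UMIs) and finally 1.7 at P3. From E12.5 to E16.5 it fell 17.7-fold (-4.14 ± 0.57, adjusted p = 2.6e-07). With barcodes of both the Rgs5 and a Col1a1 gate kept in the Rgs5 gate the log2 difference was -2.52. At E16.5 Pdgfra was 49.3-fold lower in the Rgs5 gate than in Tcf21 fibroblasts (-5.62 ± 0.45, adjusted p = 4.7e-13), or -3.97 on the log2 scale with those barcodes kept. The Rgs5 gate held 3 and 1 Pdgfra UMIs at E16.5, so both folds show the direction and not an exact size.

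A split by Kcnj8 or Higd1b, made after the data were seen, separated the stages. Only 5 barcodes per library had a UMI of either gene at E12.5, against 89 and 74 at E16.5, while 57 and 57 barcodes lacked both at E12.5 and 3 and 4 at E16.5. The E12.5 barcodes without these genes held 69.6 and 95.1 CPM of Pdgfrb, 38.2 and 48.8 of Pdgfra and 39.3 and 43.8 of Pdgfa. Those with them held 109.0 and 147.5 of Pdgfrb, 10.9 and 0 of Pdgfra and 109.0 and 214.6 of Pdgfa. At P3, 386 barcodes with either gene held 503.9 CPM of Pdgfrb and 58 without held 175.3. Stage and the presence of pericyte genes thus went largely together in the Rgs5 gate. The smaller groups hold few barcodes, and the separate parts of stage and these genes were not tested.

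**Figure D4:**
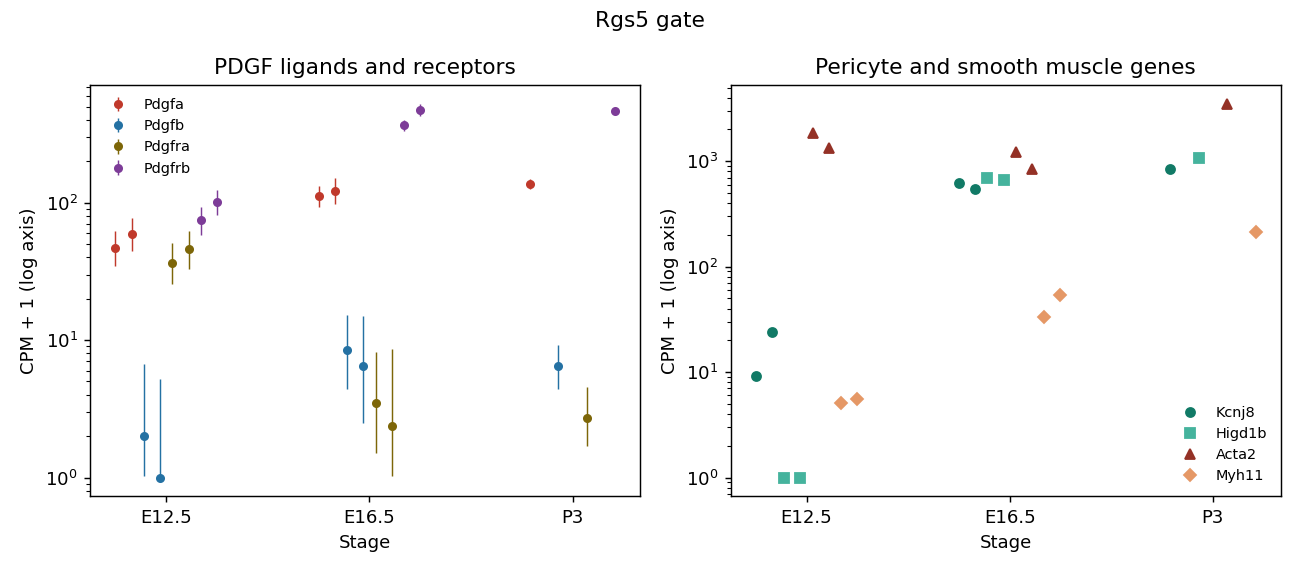
CPM plus 1 on a log axis are plotted by stage for the Rgs5 gate, per library, for the 4 genes (left, with 95% exact Poisson intervals) and for pericyte genes (Kcnj8, Higd1b) and smooth muscle genes (Acta2, Myh11) (right). Pdgfrb, Pdgfa, Kcnj8 and Higd1b are higher at E16.5 and P3 than at E12.5, and Pdgfra is at 35.6 and 44.7 at E12.5 and at or below 2.5 later.

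Outside the mural gate Pdgfrb was at intermediate levels in Col1a1 and ungated barcodes of the hearts and low in the other gates. Ungated barcodes held 38.1 and 41.2 CPM at E12.5, then 56.6 and 68.2 at E14.5, then 47.8 and 40.9 at E16.5 and finally 16.6 at P3. The Col1a1 gate held 51.6 and 41.2 CPM at E12.5, then 84.9 and 71.9 at E14.5, then 44.3 and 45.6 at E16.5 and finally 45.5 at P3. Both E14.5 libraries were above the others, with a rise of 0.79 ± 0.16 on the log2 scale from E12.5 (adjusted p = 3.8e-04; 13.7% of genes called) and a fall of -0.57 ± 0.14 to E16.5 (adjusted p = 0.0024; 19.8% of genes called). In barcodes with Sox9 and no Tcf21 Pdgfrb rose 1.66-fold from E12.5 to E16.5 (0.73 ± 0.22, adjusted p = 0.017; 15.6% of genes called), a call lost without E12.5 replicate 2 or E16.5 replicate 1. Between barcodes with Sox9 alone and Tcf21 alone the difference was 0.08 ± 0.18 (adjusted p = 0.90). Endothelial Pdgfrb lay between 10.54 and 19.4 CPM in the hearts. It was higher in the Npr3 than in the Fabp4 subset, with 36.7 and 33.3 against 7.7 and 1.9 at E16.5, and 11.2 and 12.4 with both genes. The 7.7 came from 27 UMIs in 3 of 170 barcodes. Those with neither 2 Fabp4 UMIs nor an Npr3 UMI held 15.7 and 23.1 at E16.5 (4 and 5 UMIs). At E14.5 they held 15.9 and 22.6, against 19.7 and 25.9 in the Npr3 subset. At E16.5 the Npr3 and Fabp4 subsets had a 6.21-fold difference (-2.63 ± 0.32, adjusted p = 1.8e-06, 38.6% of genes called). At P3 the order was not kept, with 7.2 in the Npr3 subset (6 UMIs) and 11.1 in the Fabp4 subset.

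A larger share of Col1a1 than of Rgs5 barcodes had a UMI of both receptors, above all after E12.5. Of the Col1a1 barcodes, 32.4% and 27.3% had a UMI of both receptors at E12.5, 24.9% and 19.7% at E16.5 and finally 19.6% at P3. Of the Rgs5 barcodes, 24.2% and 22.6% had both at E12.5, 2.17% and 1.28% at E16.5 and finally 1.13% at P3, where 89.0% had Pdgfrb alone. These shares are not thinned and depend on the depth of the barcodes. They also follow how common each gene is: at P3 44.2% of Col1a1 barcodes had Pdgfra alone, against 0.45% of Rgs5 barcodes. Whether the receptors shared barcodes more or less often than that gives was not tested. Barcodes of both the Rgs5 and a Col1a1 gate are left out. At P3 the 157 of them held 82 Pdgfra UMIs, against 7 in the Rgs5 gate.

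In the embryos both receptor genes were higher in ungated barcodes with a factor of mesenchyme or mesoderm than in those with a factor of neural progenitors. Barcodes with at least 2 UMIs of Prrx1, a factor of limb and body wall mesenchyme, held 25.1 CPM of Pdgfra at E8.5 and 33.8 and 31.9 at E10.5, and 30.3, 31.4 and 32.5 of Pdgfrb. Barcodes with Meox1, a factor of somites, held 27.5, 31.8 and 26.4 of Pdgfra and 30.0, 26.7 and 26.4 of Pdgfrb. Those with Hand1, a factor of lateral mesoderm, held 28.3, 49.996 and 43.6 of Pdgfra and 20.4, 20.4 and 20.6 of Pdgfrb. Ungated barcodes with fewer than 2 UMIs of each of these factors, Sox10 and Sox2 still held 396, 1035 and 974 of the 1640, 3926 and 3650 Pdgfra UMIs of the libraries, and 322, 841 and 850 of the 1597, 3274 and 3214 Pdgfrb UMIs. Barcodes with Sox2, a factor of neural progenitors, held 1.6 to 2.4 CPM of either receptor gene, and 31.2, 19.8 and 20.3 of Pdgfa. These subsets were set after the data were seen and were not tested.

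The other genes of the pathway were taken from a list of 27 ligands, ligand-processing proteases, the co-receptor Nrp1 and signalling proteins, of which 25 passed the filter on low counts. Of all genes, 40.5% were called in either direction in endothelial cells from E12.5 to E16.5. Of the 25, 15 rose, 1 fell and 9 were not called, with a median log2 change of 0.48 against 0.01 over all genes. Among those that rose were the kinase subunits Pik3ca and Pik3r1, the adaptors Shc1 and Crk and Nrp1, a co-receptor in vessels that went from 281.6 and 268.9 to 405.8 and 388.1 CPM. The Pik3ca call was lost in the fit with the Col1a1 barcodes pooled (adjusted p = 0.047 and 0.051, edgeR). The ligand Pdgfd rose from 1.1 and 1.0 to 6.1 and 4.3, and the ligand Pdgfc was the gene that fell, from 0.9 in each library to 0.1 and 0.2. In the Rgs5 gate over the same stages, 7 rose, 2 fell and 16 were not called, with a median of 0.27 against 0.00. Of all genes, 21.0% were called there in either direction. Plat, a protease known to activate the C chain, rose there from 20.3 and 35.5 to 52.9 and 54.4 CPM, and Pdgfc fell from 27.5 and 25.2 to 0 in both libraries.

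Of the remaining ligands and partners, Pdgfc was highest in the Epcam gate of E10.5, at 31.9 and 32.9 CPM, and in the Col1a1 gate of the hearts it was at 22.3 and 18.5 at E12.5 and at or below 1.4 from E16.5. Pdgfrl, a receptor-like gene without a kinase domain, was highest in the Col1a1 gate at E14.5 and later, with 54.4 and 58.5 at E16.5 and finally 149.2 at P3. Plau, a protease, did not exceed 1.6 in any gate, and Furin, a protein convertase, lay between 8.9 and 49.6. Between Tcf21 fibroblasts and endothelial cells over E14.5 and E16.5, 4 of 25 genes were higher in the fibroblasts, 11 were lower and 10 were not called. The list median was -0.69 against -0.16, with 36.5% of all genes called in either direction.

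For each member, the 3 genes with the most alike pattern over 33 means of gate and stage were found by Pearson correlation of log2 levels among 5125 genes. The points share libraries, so r is given as a description. Pdgfb was most like Arhgef15 (r = 0.951), Erg (0.939) and Adgrf5 (0.937), and Pdgfra most like Clmp (0.929), Tnc (0.890) and Lum (0.876). Pdgfrb was most like Arhgef25 (0.912), Flna (0.905) and Papss1 (0.899). Pdgfa had the weakest likeness, with Lama5 (0.804), Cystm1 (0.794) and Dag1 (0.713).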

How the data were processed

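The files that the authors deposited hold raw UMI counts for every gene in every barcode, aligned to mm10. Their matrix headers name Cell Ranger, and the submitters' processing notes name Cell Ranger 2.1.1 and Seurat 3.1.1. The labels name trypsin and the version 2 chemistry, the paper's methods another enzyme and version, and 9 of the matrices list 737280 barcodes, whereas P3 lists 10964. All 10 matrices were read, with no normalized values used. E16.5 replicate 1 pools 2 sample records, as does P3.

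Barcodes of at least 2000 UMIs were gated: Tnnt2 at 20 or more per 10000 UMIs, Col1a1 at 5 per 10000 (at least 2 UMIs) with at least 1 UMI of Tcf21 or Sox9, Rgs5 at 5 per 10000 (at least 3 UMIs), and at least 2 UMIs of Cdh5, Upk3b or Epcam. Barcodes with 50% or more globin UMIs were called erythroid. No doublet caller was run, and library pairs shared about as many barcodes as their sizes give by chance, 27 to 264, with 30 shared by the P3 suffixes.

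Counts were summed per library and gate (at least 20 barcodes) and tested in 1 fit over E10.5 to E16.5 with edgeR 4.0.16 (quasi-likelihood, TMM factors, default filter on low counts, Benjamini-Hochberg threshold 0.05) in R 4.3.3, with 40 sums, 13229 genes and 20 residual degrees of freedom. DESeq2 1.42.0, other scaling, filters, gates, left-out libraries and a mean over barcodes were alternatives. Intervals of levels and shares are exact at 95% and cover counting error only. The 95% interval of a fitted log2 difference comes from its SE and a t distribution. The script was tested on simulated data. The gates of a library come from 1 suspension and are therefore paired between gates, though not between stages. Over 41 pairs of gates, deviations from the stage means correlated at -0.0159 to 0.777, over 0.1 in 31. The main fit has no block, so the sums of 1 library enter as independent, and the library as a replicate block was an alternative.

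The members, the pathway list and the markers were chosen with earlier results of these data known. Named genes were the 4 members, the ligand, processing and co-receptor genes of the list, and the 3 most alike genes per member. Other genes named (signalling proteins of the list, subset markers and genes of the Pdgfra-bearing endothelial barcodes) were chosen after their values were seen.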

Additional observations from a re-analysis of the deposited data

Results flagged for a closer look

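Of 12 tests in the main fit of whether a difference between gates changed from E12.5 to E16.5, 6 were called. All 6 are given here because 2 stages differed under the same contrast. None was called between the Upk3b and the cardiomyocyte gate. Tests of this kind in the fit with the Col1a1 barcodes pooled are not counted. The difference between the Rgs5 and the endothelial gate changed by 1.47 on the log2 scale for Pdgfa (adjusted p = 5.1e-04, edgeR), by -4.39 for Pdgfra (adjusted p = 3.4e-06) and by 2.66 for Pdgfrb (adjusted p = 1.3e-10), among 13.6% of genes called. For Pdgfra the Rgs5 gate was 8.72-fold higher than the endothelial gate at E12.5, and at E16.5 the difference was -1.27 ± 0.76 with an adjusted p of 0.22. With barcodes of both the Rgs5 and a Col1a1 gate kept, the Pdgfra change was -2.80.

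The difference between the endothelial and the cardiomyocyte gate changed by -0.62 for Pdgfa (adjusted p = 0.045), by 3.19 for Pdgfb (adjusted p = 7.5e-06) and by 1.53 for Pdgfra (adjusted p = 0.0010), among 30.7% of genes called. The Pdgfa change lost its call in 10 alternatives, among them leaving out E12.5 replicate 2, E14.5 replicate 1, E14.5 replicate 2 or E16.5 replicate 2. Without E16.5 replicate 1 it was -1.25. The Pdgfb change was 2.44 without E12.5 replicate 2, and the cardiomyocyte side of both the Pdgfb and the Pdgfra change lay near the level of erythroid barcodes.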

How the results depend on the processing

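For the 4 members, 107 log2 differences were recomputed under alternatives. These were the ones called in the main fit and a list of headline comparisons, so most uncalled differences that might gain a call were not followed. Some alternatives left out a library that a difference does not use. Of 2012 values in all, 1931 kept direction and call, 80 kept the direction and lost the call, and 1 turned. The value that turned was the Pdgfa difference between the Upk3b and the cardiomyocyte gate, which is not called and was -0.070 under doubled gate thresholds. The difference of Pdgfra between barcodes with Sox9 alone and Tcf21 alone lost its call under doubled gate thresholds (-0.46, adjusted p = 0.11, edgeR) and ranged from -0.56 to -0.30 with 1 library left out. With the library as a replicate block all 153 recomputed values, counts of genes included, stayed on the same side; for that Pdgfra difference the blocked value was -0.42 (adjusted p = 0.012). The cause of these losses was not tested. Counts of called genes moved by over 1.5 times in 17 comparisons without E16.5 replicate 1, in 14 without E14.5 replicate 1 and in 13 without E14.5 replicate 2, and in at most 5 under any other fit. With the mean over barcodes in place of the summed level, 12 of 28 levels moved beyond their counting intervals, among them endothelial Pdgfb at P3 (61.4 in place of 79.6 CPM) and at E14.5 (28.3 and 35.8 in place of 38.4 and 45.1). Between the Rgs5 gate and Tcf21 fibroblasts at E16.5, 1723 genes were called, against 836 and 1029 with 1 library left out. The change of Pdgfra and Pdgfrb from E12.5 to E16.5 in Tcf21 fibroblasts could not be fitted, since Tcf21 alone marked 5 and 16 barcodes at E12.5, and doubled thresholds left too few Rgs5 barcodes for the change from E12.5. Pdgfb in cardiomyocytes, at most 57 UMIs per library, sets how precisely folds against this gate are known.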

Other observations

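Outside the gates of the hearts, barcodes with at least 2 UMIs of C1qa, a macrophage complement gene, held Pdgfb as well. The level was 7.1 and 19.0 CPM at E14.5 (4 and 7 UMIs), then 25.8 and 29.0 at E16.5 (16 and 9 UMIs from 52 and 37 barcodes) and finally 21.2 at P3 (38 UMIs from 161 barcodes), against 51.1 and 53.4 in the endothelial gate at E16.5. The same barcodes held 0 or 1 UMIs of each receptor gene per library at E14.5 and E16.5.

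Barcodes that passed the Col1a1 threshold without a UMI of Tcf21 or Sox9 held Pdgfra at 156.9 and 94.4 CPM at E12.5, then 76.4 and 102.2 at E14.5, then 70.9 and 74.4 at E16.5 and finally 44.4 at P3. The P3 barcodes of this kind, 119 in number, held 83.5 CPM of Pdgfa, against 12.7 in the Col1a1 gate.

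At P3, 157 barcodes passed both the Rgs5 and a Col1a1 gate, with a median of 10400 UMIs. They held 204.9 CPM of Pdgfrb and 45.8 of Pdgfra. For both genes this lies between the Rgs5 gate (467.3 and 1.7) and the Col1a1 gate (45.5 for Pdgfrb, and the P3 level given above for Pdgfra).

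The 11 and 13 E14.5 endothelial barcodes with at least 2 Pdgfra UMIs and neither 2 Fabp4 UMIs nor an Npr3 UMI were looked at again. They were set against barcodes of the whole endothelial gate without Pdgfra. They also held more Aqp8 (226.0 and 338.4 CPM against 4.0 and 0.9), Cldn11 (113.0 and 196.2 against 9.5 and 9.6) and Hapln1 (301.4 and 358.0 against 49.8 and 53.6). They held less Emcn (70.0 and 9.8 against 276.3 and 246.8). These genes were picked after their values were seen and are given without a test.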
